A study of Mus musculus with 3 samples.

Results

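The 9 apolipoprotein genes Apoa1, Apoa2, Apoa4, Apob, Apoc1, Apoc3, Apoe, Apoh and Apom were taken by symbol from the 31053 genes of each count matrix. They were followed across liver cell classes in 3 droplet libraries. The livers came from female mice of the strain labelled Balb\c. The control had received PBS and was 8 weeks old, the day 4 mice were 8 weeks old and the day 21 mice 11 weeks old, both after orthotopic injection of 4T1, a line of mouse mammary carcinoma cells derived from that strain. Age therefore differs together with tumour day at day 21, and the effects of these cannot be told apart. The number of mice per library and the collection day of the control are not stated in the labels. The series title sets the question of how tumours outside the liver relate to liver inflammation, HNF4A and metabolism. Non-parenchymal cells of perfused livers were measured with 10x 3' chemistry, which counts UMIs (unique molecular identifiers, each 1 captured transcript end). Levels are given as CPM, the UMIs of a gene scaled to a fixed total of all UMIs summed over a class, or per 10000 UMIs. They are not divided by gene length.

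Apolipoproteins are the protein coats of plasma lipoproteins. Apolipoprotein B forms the backbone of the triglyceride-rich particles the liver secretes, apolipoproteins A-I and A-II build high-density lipoprotein, and the smaller C and E proteins move between particles and steer lipase activity and receptor uptake. Hepatocytes make most of them, while apolipoprotein E and, at lower levels, apolipoprotein C-I are also products of macrophages. Several hepatocyte genes of this family are textbook targets of HNF4A.

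The libraries held 6489 barcodes and 27191082 UMIs in the control, 9175 and 34833820 at day 4, and 12338 and 51913215 at day 21. Filters on genes and mitochondrial UMIs and removal of called doublets left 4694, 5410 and 9938 cells with median depths of 4179, 4438 and 3017 UMIs. The control shared 13 barcodes with day 4 and 22 with day 21, and the tumour libraries shared 32. The 9 genes were kept out of the clustering and naming of cells. There was 1 library per group, so no difference between groups could be tested, and every 95% interval covers counting error only.

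A non-parenchymal preparation is meant to leave hepatocytes behind, and their markers were nevertheless the most detected in 2 of the 32 clusters. Cluster 1, of 14 cells, took the name hepatocyte-like. Cluster 0, of 471 cells, had all 15 hepatocyte markers detected, but it was shallow, led by Fabp1, Fabp2, Sult1d1 and Rgn, and stayed unnamed. Both are called hepatocyte-marker cells here, a grouping chosen after the data were seen. There were 83 of them in the control library, 212 at day 4 and 190 at day 21, with median depths of 1577, 1250 and 974 UMIs. The summed level of the 15 hepatocyte markers in them was 91692, 84853 and 70466 CPM. Markers of neutrophils, cells that were 54, 189 and 2592 in number, were also counted in them. Of 11 such markers, 2, 8 and 10 had a UMI, and they summed to 10.7, 128 and 5931 CPM, with Acod1 at 0 in each library. Of 7 erythroid markers, 5, 5 and 6 had a UMI, summing to 67.9, 182 and 7184 CPM. The part of these transcripts in the results below was not tested.

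The genes lie on 6 chromosomes of GRCm38. Apoa1 (chr9:46228580-46230466, plus strand), Apoc3 (chr9:46232933-46235636, minus) and Apoa4 (chr9:46240696-46243459, plus) adjoin each other, as do Apoc1 (chr7:19689481-19692660, minus) and Apoe (chr7:19696109-19699188, minus). Apoa2 is at chr1:171225054-171226379, Apob at chr12:7977648-8016835 and Apoh at chr11:108343354-108414396, all on the plus strand, and Apom is at chr17:35128997-35132050 on the minus strand. The sequences before the annotated starts of 4 genes are shown because these 4 carry the contrasts described below, Apoa4, Apoa1 and Apob in hepatocyte-marker cells and Apoe in macrophages. They are from RefSeq on GRCm38.p6, read 5′ to 3′ on the strand of the gene and cut at the GENCODE M21 start of the gene, at chr9:46240594-46240695 for Apoa4, chr9:46228380-46228579 for Apoa1, chr12:7977427-7977647 for Apob and chr7:19699189-19699438 for Apoe. Capitals mark a searched motif.

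Apoa4: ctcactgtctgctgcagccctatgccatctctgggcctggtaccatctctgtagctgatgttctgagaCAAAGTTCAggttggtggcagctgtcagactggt

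Apoa1: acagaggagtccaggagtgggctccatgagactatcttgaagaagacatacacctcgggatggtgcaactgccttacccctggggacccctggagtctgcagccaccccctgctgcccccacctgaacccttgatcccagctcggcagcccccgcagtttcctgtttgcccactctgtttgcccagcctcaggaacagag

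Apob: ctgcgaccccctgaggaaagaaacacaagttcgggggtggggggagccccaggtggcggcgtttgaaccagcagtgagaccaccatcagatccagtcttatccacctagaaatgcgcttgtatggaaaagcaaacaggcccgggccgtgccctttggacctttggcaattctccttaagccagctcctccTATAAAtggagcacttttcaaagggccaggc

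Apoe: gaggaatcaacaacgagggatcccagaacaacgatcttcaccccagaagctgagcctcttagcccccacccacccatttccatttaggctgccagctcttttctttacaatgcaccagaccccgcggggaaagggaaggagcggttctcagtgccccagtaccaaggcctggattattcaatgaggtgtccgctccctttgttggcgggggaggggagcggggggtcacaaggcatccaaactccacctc

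Both strands of the 250 bases before the RefSeq start were searched for 6 motifs, the HNF4-type cores CAAAGTTCA, CAAAGTCCA and CAAAGGTCA, the HNF1 palindrome, the C/EBP palindrome TTGCGCAA and TATAAA. RefSeq windows were held for 7 of the 9 genes, all but Apoc1 and Apoc3. CAAAGTTCA occurred in Apoa4 on the plus strand, 34 to 26 bases before the GENCODE start, and in 93 of 27025 promoters (0.344%). TATAAA occurred in Apob, 31 to 26 bases before that start, and in Apoa2, and in 3504 promoters (12.97%). No searched motif was matched in the windows of Apoa1, Apoe, Apoh or Apom. A match is a description of letters only.

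Among the cells that passed the filters, the hepatocyte-marker cells held a large share of the transcripts of the family other than Apoe. Barcodes removed by the filters are not in these shares, and the 9 genes made up 153, 123 and 56.3 per 10000 of their UMIs. These were 1.77, 3.92 and 1.91% of cells in the control, day 4 and day 21 libraries. They held 64.9, 70.9 and 77.5% of the Apoa1 UMIs found in cells, 71.7, 82.5 and 80.4% of Apoa2, and 68.5, 83.3 and 82.3% of Apoc3. Apob, Apoh and Apom had 57.7 to 73.8% there and Apoa4 61.8 to 83.7%. Apoc1 was more spread, with 38.5, 40.9 and 48.3%. Apoe stood apart with 5.28, 5.66 and 8.29%, so more than 9 in 10 of its UMIs came from other cells.

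Apoa2, Apoe and Apoc1 had the highest counts of the family in hepatocyte-marker cells, and Apoa4 and Apom the lowest. With the levels of the family set against the control, 1 of 9 genes was at least 2-fold lower at day 4, where 3.82% of 6381 genes were, and 2 of 9 at day 21, where 6.83% of 5051 genes were. None was 2-fold higher, against 4.76% and 11.6% of genes. Between day 21 and day 4 none was past 2-fold in either direction, against 4.93% of genes lower and 7.85% higher. All 9 genes had the 20 UMIs required in each comparison. The median log2 ratio of the 9 was -0.08 at day 4 and -0.65 at day 21 against the control, beside 0.05 and 0.19 over all genes measured. The sign of the day 4 median was not stable, with -0.61 to 0.17 over 14 other settings, whereas the day 21 median was below 0 in all 14 (-1.76 to -0.078).

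**Figure D1:**
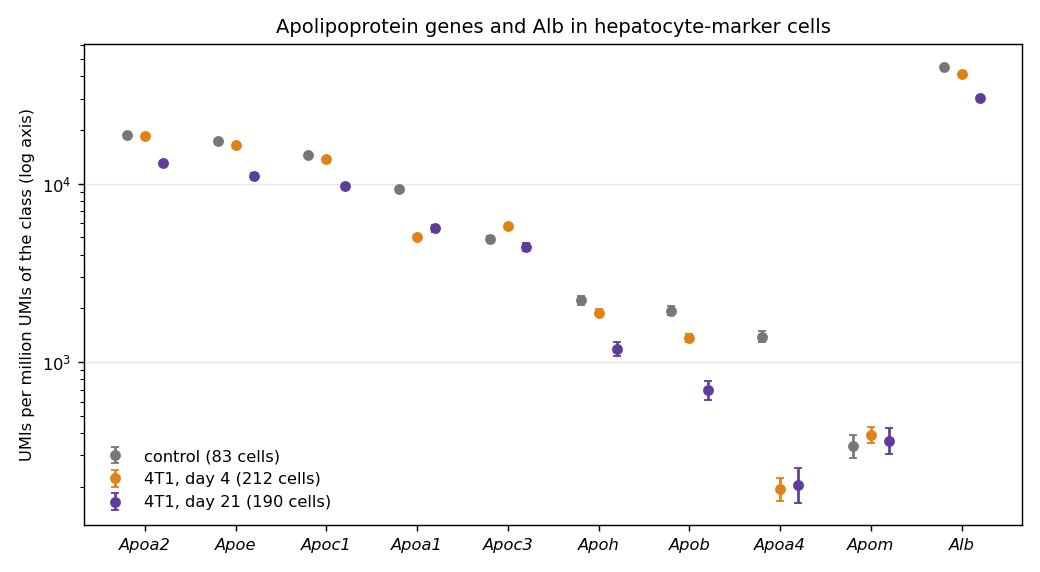
Level of the 9 apolipoprotein genes and albumin (Alb) in hepatocyte-marker cells of the control, day 4 and day 21 libraries, in CPM on a log axis. Points are class sums, 1 library per group, and bars are exact 95% Poisson intervals; Apoa4 stands lower in both tumour libraries, at 194 and 204 CPM, than in the control, at 1388 CPM.

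Apoa1 encodes the main protein of high-density lipoprotein. It had 9356 CPM in the control (5238 UMIs), 5015 CPM at day 4 (4865 UMIs) and 5610 CPM at day 21 (2224 UMIs). Both tumour libraries were below the control by more than counting error, by a log2 ratio of -0.90 (-0.96 to -0.84) at day 4 and -0.74 (-0.81 to -0.67) at day 21. In the control, 1 cell held 1141 of the 5238 UMIs (21.8%). Without the cell with the most Apoa1 UMIs in each library the ratios were -0.71 (-0.78 to -0.65) and -0.52 (-0.59 to -0.44).

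Apoa2, the second structural protein of that particle, had 18823, 18549 and 12981 CPM in the same order. The day 4 library was level with the control (log2 ratio -0.02) and day 21 was below both, at -0.54 (-0.58 to -0.49) against the control.

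Apoa4 encodes apolipoprotein A-IV, carried on chylomicrons and high-density lipoprotein. It had the largest difference of the 9, with 1388 CPM in the control (777 UMIs), 194 CPM at day 4 (188 UMIs) and 204 CPM at day 21 (81 UMIs). The log2 ratios against the control were -2.84 (-3.08 to -2.61) and -2.76 (-3.11 to -2.43), and day 21 was within counting error of day 4 (0.08, -0.32 to 0.46). The size of the difference rests in large part on 1 control cell of 44250 UMIs, which held 547 of the 777 UMIs (70.4%). Without the cell with the most Apoa4 UMIs in each library the levels were 446, 156.5 and 166 CPM in the control, day 4 and day 21 libraries, and the log2 ratios against the control -1.51 (-1.82 to -1.21) and -1.42 (-1.85 to -1.02).

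Apob, the single large protein of very low-density lipoprotein, showed a stepwise order of libraries. It had 1942 CPM in the control (1087 UMIs), 1366 CPM at day 4 (1325 UMIs) and 694 CPM at day 21 (275 UMIs). The log2 ratio was -0.51 (-0.62 to -0.39) at day 4 and -1.48 (-1.68 to -1.29) at day 21 against the control, and -0.98 for day 21 against day 4.

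Among the exchangeable C apolipoproteins, Apoc1, which inhibits lipoprotein uptake, had 14573, 13767 and 9702 CPM. Its log2 ratio was -0.08 at day 4 and -0.59 (-0.64 to -0.53) at day 21. Apoc3, an inhibitor of lipoprotein lipase, was the gene with opposite signs, at 5787 CPM at day 4 against 4926 CPM in the control (0.23, 0.17 to 0.30) and at 4427 CPM at day 21 (-0.15, -0.24 to -0.07). Over 14 other settings the Apoc3 ratio ranged from -0.36 to 0.56 at day 4 and from -1.37 to 0.42 at day 21, so neither sign was stable.

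Apoe, a ligand for receptor uptake of lipoprotein remnants, had 17455, 16503 and 11109.5 CPM in these cells. Its log2 ratios were -0.08 (-0.12 to -0.04) at day 4 and -0.65 (-0.70 to -0.60) at day 21. Apoh, the phospholipid-binding β2-glycoprotein I, had 2222, 1889 and 1191 CPM, with ratios of -0.23 (-0.34 to -0.13) and -0.90 (-1.06 to -0.75). Its day 4 sign was not stable, as the ratio was -0.61 to 0.22 over 14 other settings and -0.048 (-0.16 to 0.067) without the cell with the most UMIs in each library. Apom, the carrier of sphingosine-1-phosphate on high-density lipoprotein, had 338, 393 and 361 CPM. Its intervals included 0 in both comparisons with the control (0.22, -0.04 to 0.48, and 0.10, -0.23 to 0.42), at 189, 381 and 143 UMIs. In the cells of at least 5000 UMIs described below, the Apom ratios were 0.37 (0.09 to 0.66) and 0.57 (0.19 to 0.94), so whether it differed depends on the cells counted.

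Albumin (Alb), the main secreted product of hepatocytes, was itself lower in the class sums. It had 41228 CPM at day 4 and 30367 CPM at day 21 against 45206 CPM in the control. The control sum includes a cell with 1164 Alb UMIs per 10000. Whether the day 4 difference holds without that cell was not tested, and the ratios to Alb below include it. Set per 100 Alb UMIs, most of the family was closer between libraries. Apoa2 had 41.6, 44.99 and 42.7 UMIs per 100 Alb UMIs in the control, day 4 and day 21 libraries, Apoc1 32.2, 33.4 and 31.9, and Apoe 38.6, 40.0 and 36.6. Apoa4 remained lower on this scale, at 0.470 at day 4 and 0.673 at day 21 against 3.07 in the control. That control value includes the 1 cell that held 547 of its 777 Apoa4 UMIs, and it was not computed without that cell. In barcodes removed by the filters the Apoa4 gap was smaller, at 0.632 and 0.350 against 0.943. Apob in hepatocyte-marker cells was lower too, at 3.31 and 2.28 against 4.29. Apoa1 was lower at day 4 (12.2 against 20.7 in the control) and closer at day 21 (18.5). Apoc3 (10.9, 14.0 and 14.6) and Apom (0.747, 0.953 and 1.19) had their lowest value in the control.

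The day 4 difference in Apoa1 per 100 Alb UMIs was also present outside the hepatocyte-marker cells. It was 12.1 at day 4 against 18.1 in the control in Kupffer-like cells, 12.4 against 16.5 in endothelial-like cells, 13.3 against 17.9 in stellate-like cells, and 10.4 against 17.5 in T-like plus B-like cells. In barcodes that the filters had removed it was 7.85 against 10.8. Day 21 gave no common direction, with 15.9 in the removed barcodes, above their control, and 18.5 against 20.7 in hepatocyte-marker cells. The droplets of a library share its free RNA, so these are not separate replicates.

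Deep cells carried most of these sums. Hepatocyte-marker cells with at least 5000 UMIs, a limit chosen after seeing the data, numbered 19, 36 and 17 and held 82.1, 75.5 and 48.5% of the class UMIs. Apob had a median per cell of 20.2 per 10000 UMIs in the control (0 to 34.8), 15.6 at day 4 (0 to 27.7) and 12.5 at day 21 (0.546 to 24.5). The medians kept the order of the sums while the ranges overlapped. Apoa1 had 67.0 (3.29 to 247), 47.8 (1.62 to 133) and 73.8 (22.9 to 150) per 10000, so the day 21 cells were not below the control by the median. Apoe had medians of 161, 152 and 151 per 10000, while its sum over these deep cells was 18658, 16364 and 13238 CPM (day 21 over control -0.49, -0.56 to -0.43). Apoa4 was a gene of few cells, with medians of 0.524 (0 to 124), 0.437 (0 to 11.3) and 1.68 (0 to 15.3), and passed 10 per 10000 in 3 of 19, 2 of 36 and 2 of 17 cells. The cell with the most Apoa4 had also the highest albumin level, 1164 per 10000. Albumin in the deep cells was 47601 CPM at day 4 and 52045 CPM at day 21 against 50382 CPM in the control. In the shallower cells it was 9969 CPM at day 21 against 21512 CPM in the control. These shallower cells held 51.5% of the class UMIs at day 21 against 17.9% in the control. The lower class sum of albumin at day 21 thus combines their lower level and their larger share, which were not separated. In the deep cells Apoa2 (-0.37), Apoc1 (-0.42) and Apoe (-0.49) were below the control at day 21 while albumin was not (0.047, 0.013 to 0.081).

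**Figure D2:**
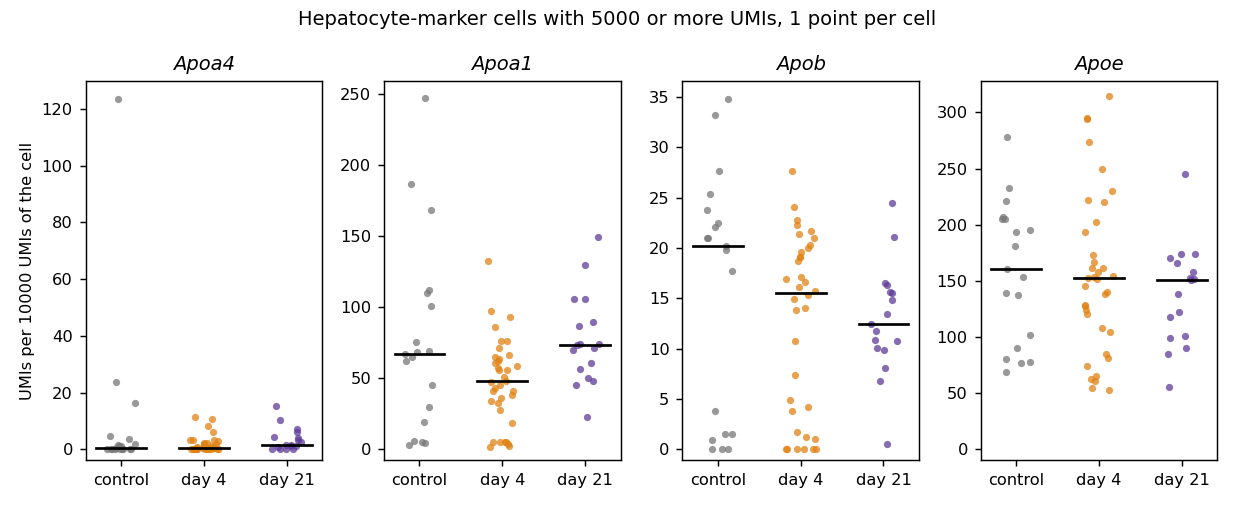
Apoa4, Apoa1, Apob and Apoe per 10000 UMIs in single hepatocyte-marker cells with at least 5000 UMIs. Each point is 1 cell of the control (19), day 4 (36) or day 21 (17) library, and lines are medians; Apob medians are 20.2, 15.6 and 12.5, and Apoa4 is high in few cells. Cells of a library are not replicates of its condition.

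Some deep cells held little albumin. Below 100 Alb UMIs per 10000 were 5, 8 and 1 cells, with Apob at 0 to 1.75 and Apoe at 52.8 to 102 per 10000. In the 14, 28 and 16 cells at or above that limit the Apob medians were 21.5, 17.0 and 12.97 per 10000 and the Apoc3 medians 51.2, 64.5 and 56.2. Over all deep cells the Apoc3 medians were 44.8, 60.6 and 56.0, so for both genes the order of the medians was the same without the cells low in albumin. Other genes were affected by the limit. The Apoe medians were 195, 160 and 151 at or above it, further apart than over all deep cells. The Apoa2 medians were 203, 194 and 176 at or above it and 180, 183 and 162 over all deep cells, a different order.

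Hepatocytes differ along the lobule, and cells were typed by which of the periportal and pericentral lists had more UMIs. Genes of both lists themselves differed between libraries. Whether the types reflect zone or changed levels of these genes was not tested. Among the deep cells of the control, day 4 and day 21 libraries, 4, 16 and 12 had more UMIs of the periportal than of the pericentral list, and 15, 20 and 5 had more pericentral UMIs. Apoa4 was higher in the periportal-type cells of each library, which in the control include the cell with the most Apoa4, with 4360 against 110 CPM in the control, 404 against 61.9 CPM at day 4 and 522 against 48.5 CPM at day 21. The pericentral-type values rest on 32, 21 and 3 UMIs and give no order. Apob had 2603, 1949.5 and 1381 CPM in periportal-type and 2014, 1362 and 841 CPM in pericentral-type cells, so the order of libraries held in both types. Apoc3 was higher in periportal-type than in pericentral-type cells in each library, for example 7394 against 4922 CPM at day 4. Apoa1 was lower at day 4 than in the control in both types, at 4664 against 14506 CPM in periportal-type and 5916 against 7633 CPM in pericentral-type cells. In the control, 1 hepatocyte-marker cell held 1141 of the 5238 Apoa1 UMIs (21.8%), and the types were not compared without it.

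Outside hepatocytes, Apoe was the one family member at a high level in every library. Kupffer-like cells, liver macrophages of the sinusoid (471, 922 and 669 cells), had 22076 CPM in the control, 22818 CPM at day 4 and 11387 CPM at day 21, at or above the hepatocyte-marker cells. Their 12 macrophage markers summed to 32267, 36159 and 31348 CPM. The log2 ratio of Apoe against the control was 0.048 (0.035 to 0.060) at day 4 and -0.96 (-0.98 to -0.93) at day 21, and day 21 was below day 4 by a log2 ratio of -1.003. By cell, the median was 206 per 10000 UMIs in the control (middle 50% of cells 132 to 289), 208 at day 4 (138 to 300) and 85.5 at day 21 (50.3 to 132). The day 21 cells were shallower, with a median of 2019 UMIs against 7839 in the control and 7542 at day 4, and the 11 neutrophil markers summed to 6248 CPM (11 with a UMI) against 54.7 in the control (8) and 63.9 at day 4 (9). The part of either in the lower Apoe was not tested.

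Kupffer-like cells fell into 2 clusters, and Apoe was lower at day 21 in both. In the deeper cluster 5 it was 22233, 22731 and 12789 CPM in the control, day 4 and day 21 libraries, and in the shallower cluster 13 it was 20900, 23625 and 7305 CPM. With each cell thinned to 1000 UMIs, an Apoe UMI was found in 100, 100 and 99.3% of Kupffer-like cells (100, 100 and 98.7% unthinned), leaving out 37, 78 and 127 cells. The share in T-like cells, which should lack the gene, was 24.9, 24.7 and 10.2% thinned and 58.2, 58.0 and 17.3% unthinned, at median depths of 3689, 3864 and 1741 UMIs. Detection in Kupffer-like cells was thus close to its ceiling in each library. It cannot tell a lower level in most cells from a mix of high and low cells. The median and both quartiles by cell were lower at day 21, as given above, while the full ranges of the libraries overlapped.

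Endothelial-like cells (1366, 1505 and 1040) had 6393, 7039 and 2859 CPM of Apoe, a log2 ratio of 0.14 (0.12 to 0.16) at day 4 and -1.16 (-1.20 to -1.13) at day 21 against the control. Different clusters held the class, as 913 of the 1040 day 21 cells were in cluster 15 (2954 CPM) while clusters 2, 3 and 4 held most of the others. In cluster 2, with 909, 1077 and 39 cells, Apoe was 7204, 7758 and 3423 CPM, and in cluster 3, with 104, 68 and 60 cells, it was 5796, 5446 and 1899 CPM. Day 21 was lowest within both clusters. The 11 neutrophil markers summed to 12.6, 13.4 and 2845 CPM in the class, whose own markers summed to 29600, 30266 and 30275 CPM.

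Stellate-like cells, the pericytes of the sinusoid (389, 479 and 236), had 5685, 5936 and 4673 CPM of Apoe. Their ratios against the control were 0.063 at day 4 and -0.28 (-0.32 to -0.24) at day 21, and over 10 other settings the day 21 ratio ranged from -0.51 to 0.15. Their own markers summed to 32895, 36664 and 28609 CPM in the control, day 4 and day 21 libraries. Markers of other classes were also present. Their neutrophil markers summed to 469, 557 and 5348 CPM, endothelial markers to 9326, 7564 and 11079 CPM, and Kupffer markers to 1435, 2067 and 937 CPM. The part of these transcripts in their Apoe and Apoc1 levels was not tested. Here too the clusters differed, since cluster 10 held 368 control and 449 day 4 cells and cluster 9 held 233 of the day 21 cells. Within cluster 9 (21, 30 and 233 cells) Apoe was 11297, 11943 and 4659 CPM.

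Among the classes with at least 50 cells in each library, conventional dendritic-like cells (71, 118 and 186) had Apoe above the control in both tumour libraries, with 7111 CPM at day 4 and 6479.6 CPM at day 21 against 4213 CPM in the control (log2 ratios 0.76 and 0.62). This level was uneven between cells. The median cell had 4.41 per 10000 UMIs at day 4 and 12.3 at day 21 against 3.16 in the control. The upper quartile was 127 and 105 against 60.0, and the highest cell had 984 and 666 against 2290. Classes with fewer cells give values only. Plasmacytoid dendritic-like cells had 1455 CPM at day 4 (57 cells) and 552 CPM at day 21 (89 cells) against 192 CPM in the control (42 cells), and cholangiocyte-like cells 13716 CPM (22 cells) and 14057 CPM (21 cells) against 12554 CPM (19 cells). Monocyte/macrophage-like cells had 1564 CPM at day 21 and were too few in the other libraries, and neutrophil precursor-like cells had 29.7 CPM at day 21 (412 cells). Among classes with at least 50 cells in each library, low levels were in T-like (333, 329 and 159 CPM), NK/ILC1-like (355, 334 and 107 CPM) and neutrophil-like cells (755, 738 and 147 CPM). B-like cells had 1095, 981 and 415 CPM.

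**Figure D3:**
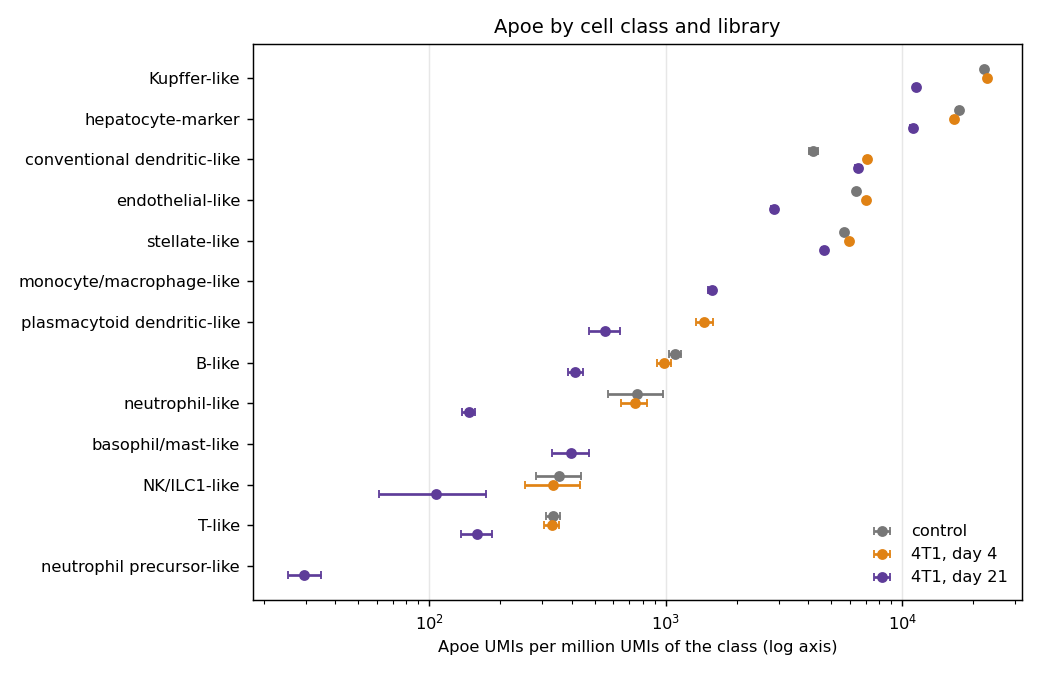
Apoe level by cell class in the control, day 4 and day 21 libraries, in CPM on a log axis, with exact 95% Poisson intervals of the class sums. Kupffer-like cells sit at 22076, 22818 and 11387 CPM and T-like cells at 333, 329 and 159 CPM; day 21 is the lowest library in most classes shown, the conventional dendritic class being an exception. Classes under 50 cells in a library are not drawn there.

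Free RNA from 1 source would keep its genes in 1 ratio in every class of a library. The ratio of each gene to Alb was set against the same ratio in T-like plus B-like cells (980, 724 and 1288 cells), which are not known for making either, as a descriptive scale. That scale is not uniform, since at day 21 Apoa2 per 100 Alb UMIs was 50.9 in T-like plus B-like cells, 19.8 in Kupffer-like, 22.4 in endothelial-like cells and 29.1 in removed barcodes. For Apoe, Kupffer-like cells were 16.6, 22.5 and 14.8 times above that ratio in the control, day 4 and day 21 libraries, endothelial-like cells 9.52, 12.6 and 6.08 times, stellate-like cells 5.201, 7.20 and 4.86 times, and conventional dendritic-like cells 12.7, 19.6 and 22.3 times. Hepatocyte-marker cells lay below it, at 0.294, 0.317 and 0.128, so Apoe in lymphocyte droplets was not in the proportion found in hepatocytes. T-like and B-like cells themselves differed, with 80.9, 86.3 and 131 Apoe UMIs per 100 Alb UMIs in T-like and 218, 210 and 388 in B-like cells.

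Apoc1 shared the macrophage pattern at a lower level. Kupffer-like cells had 2647, 2310 and 1486 CPM, a log2 ratio of -0.20 at day 4 and -0.83 (-0.90 to -0.77) at day 21 against the control. Thinned to 1000 UMIs, 80.2, 78.0 and 61.8% of them held an Apoc1 UMI, against 8.9, 7.1 and 3.3% of T-like cells. Unthinned, the shares were 94.1, 92.5 and 73.2% of Kupffer-like and 28.1, 26.4 and 5.66% of T-like cells. Per Alb UMI, Kupffer-like cells were 11.7, 14.5 and 12.8 times above T-like plus B-like cells. Stellate-like cells, which also held Kupffer markers, had 289, 284 and 269 CPM of Apoc1 and were 1.55, 2.19 and 1.85 times above. Endothelial-like cells, at 79.9, 66.1 and 27.0 CPM, were below it (0.699, 0.752 and 0.383).

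**Figure D4:**
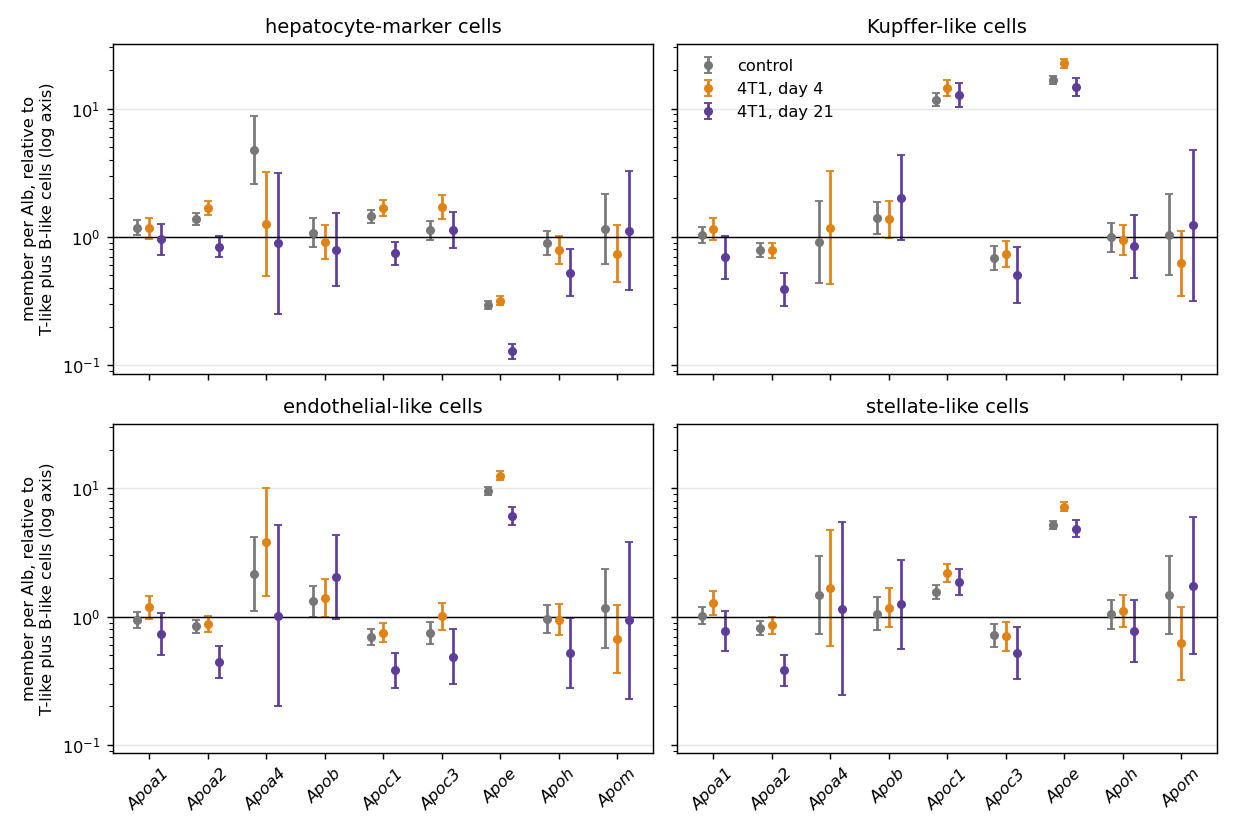
UMIs of each gene per Alb UMI in hepatocyte-marker, Kupffer-like, endothelial-like and stellate-like cells, relative to T-like plus B-like cells of the same library, on a log axis where 1 is the lymphocyte ratio. Points are the control, day 4 and day 21 libraries with 95% intervals; in Kupffer-like cells Apoe (16.6, 22.5, 14.8) and Apoc1 (11.7, 14.5, 12.8) stand away from the other genes.

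The other 7 genes lay nearer the lymphocyte ratio in Kupffer-like cells. Apoa1 lay at 1.03, 1.16 and 0.695 times the lymphocyte ratio, Apoa2 at 0.788, 0.786 and 0.389, Apoc3 at 0.685, 0.734 and 0.505, Apoh at 0.990, 0.944 and 0.845, and Apob at 1.39, 1.37 and 2.01. Apoa1, Apoa2, Apoc3 and Apoh were 2-fold above it in no class of any library, among 9, 11 and 17 classes or clusters compared in the control, day 4 and day 21 libraries. Apoa4 was so in 5, 4 and 7 of them (up to 9.66 times), Apom in 1, 0 and 9, and Apob in 0, 0 and 3. For these 3 genes the lymphocyte ratio rested on few UMIs, 10, 4 and 2 of Apoa4, 10, 15 and 3 of Apom and 64, 43 and 9 of Apob. Classes or clusters whose interval lay above it numbered 2, 3 and 0 for Apoa4, 1, 2 and 0 for Apob, and 0 in each library for Apom. Apoa4 in endothelial-like cells was 2.15, 3.84 and 1.02 times the lymphocyte ratio, on 56, 50 and 3 UMIs. How much of these levels is free RNA was not tested.

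The levels in lymphocytes were also lowest at day 21. In T-like plus B-like cells the 8 genes other than Apoe summed to 3.99, 3.08 and 1.54 per 10000 UMIs in the control, day 4 and day 21 libraries, from 1458, 910 and 451 UMIs. Alb in the same cells was 4.42, 4.05 and 1.12 per 10000. In Kupffer-like cells Apoa1 had 183, 97.4 and 36.0 CPM (log2 ratios -0.91 at day 4 and -2.34 at day 21), and Apoa4 had 5.83 and 3.50 CPM in the control and at day 4 and 0 UMIs at day 21, which allows up to 1.93 CPM.

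Counted over the family, 6 of 9 genes were at least 2-fold lower in Kupffer-like cells at day 21 than in the control, where 6.04% of genes were. These were Apoa1, Apoa2, Apoa4, Apob, Apoc3 and Apoh. None was at day 4 (2.41% of genes), and 7 were at day 21 against day 4 (4.82%). In endothelial-like cells the counts were 0 of 9 at day 4 (1.52%), 9 of 9 at day 21 (4.94%) and 9 of 9 for day 21 against day 4 (3.83%). In stellate-like cells they were 0 of 9 (1.9%), 6 of 9 (4.82%) and 3 of 9 (4.07%). T-like plus B-like cells gave 0 of 8 genes with 20 UMIs (1.71%), 6 of 7 (3.75%) and 3 of 7 (3.02%). No gene of the family was 2-fold higher in these classes. The share of all genes that was 2-fold higher at day 4 against the control, at day 21 against the control and at day 21 against day 4 was 1.8, 6.04 and 4.48% in Kupffer-like, 1.28, 7.8 and 5.97% in endothelial-like, 1.51, 6.65 and 5.78% in stellate-like and 3.54, 15.5 and 11.3% in T-like plus B-like cells. The part of free RNA in these counts was not tested.

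**Figure D5:**
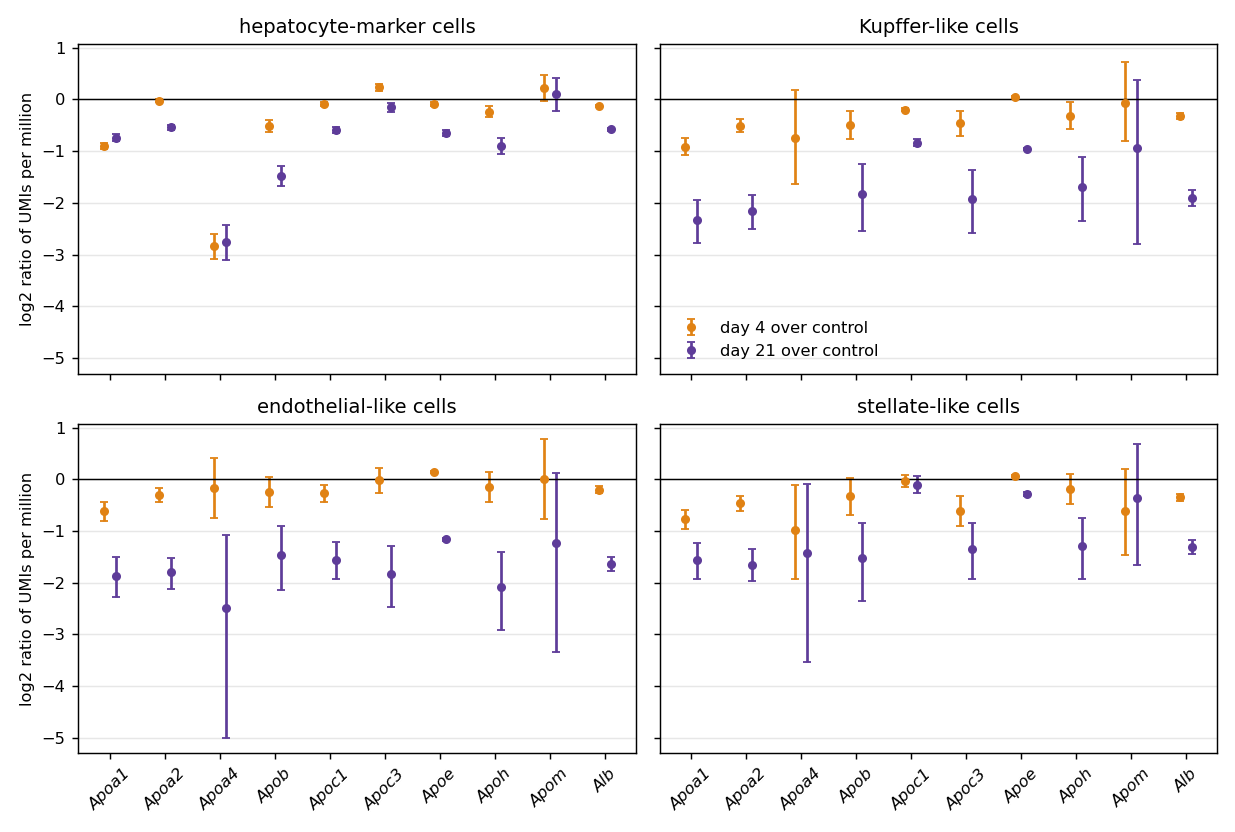
Log2 ratio of CPM for the 9 genes and Alb, day 4 over control and day 21 over control, in hepatocyte-marker, Kupffer-like, endothelial-like and stellate-like cells, with 95% counting intervals. Only pairs with at least 20 UMIs are drawn; in Kupffer-like cells Apoe lies at 0.048 and -0.96 and Apoa1 at -0.91 and -2.34.

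Lists of genes that act with the family were counted in hepatocyte-marker cells, where 4.76% of all genes were 2-fold higher and 3.82% lower at day 4 than in the control, and 11.6 and 6.83% at day 21. Of 13 lipoprotein assembly genes, 11 were measured at day 4 against the control and 9 at day 21. At day 4, 1 was 2-fold higher and none lower (median log2 ratio 0.17). At day 21, 2 were lower and none higher (-0.48). The 2 were Mttp, which loads lipid onto apolipoprotein B, at 58.0 CPM at day 21 against 119.7 CPM in the control (-1.02), and Dgat2, an enzyme of triglyceride synthesis, at 134 against 289 CPM (-1.10). Of 12 receptor genes, 8 and 7 were measured, of which 2 were 2-fold lower at day 4 (median -0.49) and 1 at day 21 (-0.71). Among these, Cd36, a fatty acid transporter, had 27.8 CPM at day 4 against 58.9 CPM in the control (-1.08).

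Of 10 genes of plasma lipases and lipid transfer, 9 and 6 were measured. At day 4, 1 was 2-fold lower (median 0.0076), Angptl4, an inhibitor of lipoprotein lipase, at 15.5 CPM against 53.6 CPM in the control (-1.77). At day 21, 1 was 2-fold higher (median -0.45), Angptl8, a hepatocyte regulator of the same lipase, at 73.2 against 14.3 CPM (2.29).

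Of 15 transcription factor genes, 11 were measured in each comparison. At day 4, 1 was 2-fold lower (median -0.06) and at day 21, 2 were (-0.38). Ppargc1a, a coactivator of HNF4A, had 30.9 CPM at day 4 and 17.7 CPM at day 21 against 96.5 CPM in the control (-1.63 and -2.36), and Creb3l3, a hepatocyte factor of triglyceride metabolism, had 103 CPM at day 21 against 250.1 CPM (-1.26). Hnf4a, picked for the series title and outside the naming rule, had 186, 208 and 174 CPM in the control, day 4 and day 21 libraries (0.16 and -0.09).

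A list of 18 further genes held mostly other apolipoproteins, but also Apobec1, Apoo and Apool, and 10 and 9 of it were measured. At day 4, 1 was at least 2-fold higher (median 0.22), Apol7a, at 75.2 CPM against 25.01 CPM in the control. None was past 2-fold at day 21 (0.31). At day 21 Clu, the extracellular chaperone apolipoprotein J, had 1105 CPM against 632 CPM (0.80), and Apoa5, an activator of plasma triglyceride breakdown, 315 against 556 CPM (-0.81). Of 13 efflux and LXR target genes, 11 were measured in each comparison, none past 2-fold at day 4 (median -0.20) and 4 lower at day 21 (-0.53). Among these were Abcg5 (-1.41) and Abcg8 (-1.46), the partners of biliary sterol export, and Npc1 (-2.07). The 15 genes of other secreted hepatocyte proteins were all measured, with none past 2-fold and medians of -0.13 and -0.09. Of these, Hpx, which binds haem, had 6844 CPM at day 21 against 4190 CPM (0.71) and Rbp4, the retinol carrier, 2803 against 5544 CPM (-0.98). In the pericentral list 0 of 6 genes at day 4 and 3 of 6 at day 21 were 2-fold lower, with Cyp2e1 at 1445 and 621 CPM against 2731 CPM in the control. In the periportal list 3 of 6 were 2-fold higher at day 4 and 1 at day 21, Hal having 338 and 429 CPM against 116 CPM.

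In Kupffer-like cells, where the median over all genes was 0.01 at day 4 and 0.09 at day 21 and 6.04% of genes were 2-fold higher and 6.04% lower at day 21, the same efflux and LXR list had 11 measured genes, none past 2-fold at day 4 (median 0.08) and 2 higher at day 21 (0.06). These were Nr1h3, which encodes LXRα, a nuclear receptor that drives Apoe in macrophages, at 365 CPM at day 4 and 681 CPM at day 21 against 242 CPM in the control (0.59 and 1.49), and the cholesterol exporter Abcg1, at 231 and 431 CPM against 205 CPM (0.17 and 1.07). Apoe and these 2 genes therefore lay on opposite sides of the control at day 21. Lpl, lipoprotein lipase, had 218 and 445 CPM against 232 CPM (-0.10 and 0.94). Of 9 receptor genes measured, none was past 2-fold at day 4 (median -0.18), and 1 was higher at day 21 (-0.01), Sorl1, at 16.7 against 3.61 CPM. Of the list of 18 further genes, mostly other apolipoproteins, 8 were measured, with none past 2-fold at day 4 (median 0.15) and 3 lower at day 21 (-0.59). Among the 3 were Apoc4 (-2.44) and Apof (-2.39), which are hepatocyte products. The 15 other secreted hepatocyte genes had 11 members 2-fold lower at day 21 (median -1.32) and none at day 4 (-0.29).

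Likeness across classes was described by Pearson's r of log2(CPM + 1) over 29 sums of 12 named classes in the 3 libraries, which share depth and free RNA within a library, for 11464 genes. Apoa1 was most like Ttr (0.97), Ahsg (0.95) and Alb (0.94), Apoa2 like Apoa5 (0.93) and Alb (0.93), Apob like Vtn (0.95) and Alb (0.92), and Apoc3 like Alb (0.94) and Rbp4 (0.93). Apom was most like Ces1d (0.85) and Apoa4 like Cyp2a4 (0.82), and Apoh had 0.84 with Gbp9. Apoe was most like Lgmn (0.90), Cxcl16 (0.89) and Ifi207 (0.88), with 0.51 for Alb, and Apoc1 like Igf1 (0.89) and the Kupffer cell lectin Clec4f (0.86).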

How the data were processed

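Raw UMI counts per gene and barcode were deposited for each library, produced by Cell Ranger (3.1.0, per the file headers) on mm10, per the submitters' processing notes. No barcode held fewer than 500 UMIs, and later steps by the authors are not stated. Cells needed 200 genes and no more than 20% mitochondrial UMIs. Doublets were called with Scrublet at 0.8% per 1000 barcodes, and the 40, 99 and 732 cells called were removed. Clustering used 2000 variable genes, 30 components, 15 neighbours and Leiden resolution 1, without the 9 members. From 20 marker lists, 13 classes took a name. The planned comparison in hepatocyte-like cells is given for hepatocyte-marker cells, as the named cluster had under 50 cells. Raw counts were summed per class and library, and 0.5 counts were added to both sums of a log2 ratio, with exact conditional binomial intervals. A gene was measured with 20 UMIs in a pair of libraries. Besides the 9 members, the genes named are among the 3 with the largest absolute ratio per list and comparison in hepatocyte-marker or Kupffer-like cells. Some list genes, markers and likeness values are not reported here. A single library per group allowed no test. The members and lists were chosen with earlier results of these data known. The steps were tested on simulated data. Software was Scanpy 1.11.5, scikit-learn 1.9.0, igraph 0.11.9, SciPy 1.17.1, NumPy 2.4.6, pandas 2.3.3, matplotlib 3.10.9 and Python 3.11.15.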

Additional observations from a re-analysis of the deposited data

Results flagged for a closer look

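In 4 cases the day 4 and day 21 libraries lay on opposite sides of the control, and the difference between the 2 contrasts, which share the control library, was not tested. Apoe in Kupffer-like cells had log2 ratios of 0.048 at day 4 and -0.96 at day 21, Apoe in endothelial-like cells 0.14 and -1.16, and Apoe in stellate-like cells 0.063 and -0.28. Apoc3 in hepatocyte-marker cells had 0.23 and -0.15. Barcodes removed by the filters, which are in none of the cell classes under the main filters, held 65.0 Apoe UMIs per 10000 at day 4 (64.4 to 65.7) against 62.7 in the control.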

How the results depend on the processing

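No paired analysis was possible because each group has 1 library, and no library could be left out. No ratio past 2-fold changed sign. Smaller ratios did, among them with ranges of -0.51 to 0.15 for Apoe in stellate-like cells and -1.76 to 0.038 for Apoa2, -1.37 to 0.42 for Apoc3 in hepatocyte-marker cells at day 21, and -0.61 to 0.22 for Apoh, -0.53 to 0.32 for Apoa2 and -0.36 to 0.56 for Apoc3 there at day 4. Over the settings run for hepatocyte-marker cells Apoa4, Apoa1 and Apob stayed below the control in 14 of 14 at both days, with log2 ratios at day 21 of -3.00 to -0.72, -1.53 to -0.16 and -2.85 to -0.57. At day 4 the ranges were -2.87 to -1.11, -1.09 to -0.31 and -1.71 to -0.0072, so Apob came level with the control. In cells under 5000 UMIs the Apoa4 interval included 0 at day 4 (-1.24, -2.85 to 0.37) and at day 21 (-0.72, -2.20 to 0.84). The settings on UMI limits, the Alb limit, single cells, the ratio to Alb, single clusters and T-like cells only were chosen after seeing the data. Settings moved 103 of 138 values of the main results by more than their counting interval, and the cause was not tested.

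The median log2 ratio of the 9 genes in hepatocyte-marker cells at day 4 (-0.082) was 0.051 with no cell filter, -0.61 with a stricter filter that left 60 day 4 and 20 control cells, 0.020 with a relaxed filter, -0.0047 at resolution 2, 0.17 with classes from the markers of each cell, 0.022 as a mean over cells, -0.0072 thinned, -0.19 in cells of 5000 UMIs or more, -0.18 with the Alb limit added and 0.051 per Alb UMI, so its sign was not stable. At day 21 (-0.65) it was -0.27, -1.76, -0.48, -0.42, -0.79, -0.49, -0.49, -0.49, -0.47 and -0.078 in the same settings, and -0.75 with called doublets kept, -0.49 in cells under 5000 UMIs and -0.52 without the top cell of each gene. For day 21 against day 4 (-0.50) it was -0.33 with no filter, -1.10 with the stricter one, -0.42 at resolution 2, -0.89 by own markers, -0.31 in deep cells, -0.30 with the Alb limit and -0.064 per Alb UMI.

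Apoe in Kupffer-like cells at day 4 (0.048) was 0.065 with no filter, 0.023 with the stricter and 0.061 with the relaxed one, 0.065 by own markers, -0.0073 as a mean over cells, 0.0061 thinned, 0.071 with free RNA removed, 0.032 in cluster 5 and 0.18 in cluster 13. At day 21 (-0.96) it was -0.92 with the stricter and -0.98 with the relaxed filter, -1.02 with doublets kept, -1.23 as a mean over cells, -1.20 thinned, -0.91 without mitochondrial UMIs, -0.80 in cluster 5 and -1.52 in cluster 13. For day 21 against day 4 (-1.003) it was -1.04 with no filter, -0.95 and -1.05 with the stricter and relaxed filters, -1.08 with doublets, -1.03 at resolution 2, -1.22 as a mean, -1.20 thinned, -0.96 without mitochondrial UMIs, -1.04 with free RNA removed, and -0.83 and -1.69 in clusters 5 and 13.

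The log2 ratio of Apoe in Kupffer-like over T-like plus B-like cells in the control (5.25) was 5.16 with no filter, 5.12 relaxed, 4.86 with doublets, 5.17 at resolution 2, 5.36 by own markers, 5.15 as a mean, 5.17 thinned and 6.05 against T-like cells only. At day 4 (5.48) it was 5.32 with no filter, 5.79 stricter, 5.25 relaxed, 4.45 with doublets, 5.30 by own markers, 5.25 as a mean, 5.33 thinned and 6.11 against T-like cells. At day 21 (5.15) it was 4.86, 5.79, 4.72, 4.43, 5.28, 4.69, 4.73 and 6.15 in the same settings and 5.03 at resolution 2.

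The 8 other genes in T-like plus B-like cells, per 10000 UMIs, were in the control (3.99) 4.37 with no filter, 3.15 stricter, 3.77 by own markers, 4.66 as a mean, 4.50 thinned, 4.42 without mitochondrial UMIs and 3.72 in T-like cells. At day 4 (3.08) they were 3.73 with no filter, 2.52 stricter, 3.49 relaxed, 3.77 with doublets, 3.83 as a mean, 3.51 thinned and 3.40 without mitochondrial UMIs. At day 21 (1.54) they were 0.923 stricter, 1.27 by own markers, 1.93 as a mean, 1.89 thinned, 1.72 without mitochondrial UMIs and 1.26 in T-like cells.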
